A study of Mus musculus with 26 samples.

Results

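The mitochondrial ribosomal protein genes were taken as the lines of the deposited table whose gene symbol starts with Mrpl or Mrps followed by a digit and that hold a number in each of the 26 libraries. The rule gave 76 genes among 25146 usable gene lines, 47 named for the large and 29 for the small subunit. All 76 matched an Entrez ID and a position on GRCm38.p6, the assembly of the mm10 build, and they lie on 17 chromosomes. The table comes from 3′ RNA-seq of 1 ng of RNA per library from 13 sorted mouse groups (n = 2 each). Values are in RPM, reads scaled to library size, so a gene's level is not divided by its length, and levels are compared below between groups for the same gene or the same set of genes. No label states that the 2 libraries of a group came from separate animals or cultures, so each p-value measures only the spread between these libraries.

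The study followed cells that turn on the transcriptional repressor BLIMP1. In the B lineage of the spleen, the stimulated groups were plasmablasts (PB, GFP+ CD138+), a preceding stage (prePB, GFP+ CD138-) and activated cells without reporter (Blast, GFP- CD138-), each sorted after 3 days with LPS at 10 ng/mL and IL-4 at 2 ng/mL. The unstimulated group was B220+ B cells of mice aged 8 to 10 weeks. Intestinal epithelium was sorted as GFP+ EPCAM+ cells at E16.5 and as EPCAM+ cells on postnatal days 3 and 14 (P3, P14) that the protocol describes as BLIMP1-negative. The retina was sorted as GFP+ cells at P0, as GFP+ CD73- and CD73+ cells at P4, and as CD73+ cells at P6 and P10, CD73 being a surface marker of photoreceptor precursors. All mice of these 3 lineages were C57BL/6 with EGFP knocked into both copies of the Blimp1 gene, B cells included, so no group without the knock-in was compared. The germ-cell line was PGCLC, primordial germ cell-like cells made in culture on a mixed C57BL/6 and 129 background with Blimp1-mVenus, stella-ECFP and Rosa26-rtTA. PGCLC were sorted as reporter-positive on day 2 of BMP4 and BMP8A (500 ng/mL each), SCF (100 ng/mL), EGF (50 ng/mL) and LIF (1000 U/mL).

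Mitochondria keep their own ribosome, which translates the few membrane subunits of the respiratory chain that the mitochondrial genome encodes. Its RNAs are made inside the organelle, but all of its proteins come from nuclear genes, are made in the cytosol and are imported. Many of these proteins have counterparts in bacterial ribosomes and the others were added during mitochondrial evolution. B cells that are activated enlarge their mitochondria and start dividing, and plasmablasts turn much of their translation to immunoglobulin.

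Of the 76 genes, 30 encode large-subunit proteins and 16 small-subunit proteins with a bacterial counterpart, and 19 and 10 encode proteins without one. The count for the large subunit includes Mrps30 and Mrps18a, whose proteins are named for the small subunit but sit in the large one. The last gene, Mrps36, is known now as a subunit of the 2-oxoglutarate dehydrogenase complex. Marker genes were read against the labels: Pou5f1 averaged 460 RPM in PGCLC, Epcam 787 to 1047 RPM in the intestinal groups and Crx 852 to 2296 RPM in the retinal groups. Sdc1, which encodes the CD138 used in the sort, averaged 9.53 RPM in PB and 0.15 RPM in prePB. Depth ran from 1716491 to 6040033 reads a library, and the median member was covered by 139 to 532 reads. The members took 0.404 to 0.795% of the RPM on usable lines. The 5 highest means over the 26 libraries were those of Mrpl18 (215 RPM), Mrps33 (183), Mrpl51 (175), Mrpl13 (160.4) and Mrpl20 (160.3). The 5 lowest were those of Mrps2 (10.2 RPM), Mrps17 (8.69), Mrps5 (5.55), Mrpl36 (3.67) and Mrpl21 (2.3). Mrpl36 and Mrpl21 averaged under 5 RPM, and Mrpl21 was at 0 in PGCLC replicate 1, where 3 reads amount to 1.75 RPM. Exons of 21 members overlap a gene on the opposite strand and those of 5 a gene on the same strand in the GENCODE M21 annotation. The sources used here do not state whether reads were assigned by strand, so reads of such pairs cannot be told apart.

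The family's level, taken as the median over the 76 genes of log2(RPM + 1) in each library, was highest in the intestine and PGCLC and lowest in PB as deposited. In the intestine it was 6.43 ± 0.04 for E16.5, 6.39 ± 0.02 for P3 and 6.40 ± 0.11 for P14 (SD, n = 2 each), and in PGCLC 6.29 ± 0.09. The retinal groups lay between 5.91 ± 0.02 at P10 and 6.07 ± 0.13 at P6. In the B lineage it was 5.36 ± 0.04 in PB, 5.88 ± 0.17 in prePB, 6.02 ± 0.14 in Blast and 5.55 ± 0.03 in B cells. In the order of the 13 groups, the intestinal groups did not separate from each other beyond the largest of their replicate gaps, 0.16 at P14. PGCLC lay 0.23 above P6, with no overlap of their libraries. From P6 down to prePB, neighbours lay at most 0.06 apart; P4 CD73- and P10, next to each other in that order, differed by 0.06 without overlap, more than their replicate gaps of 0.05 and 0.02. After median-of-ratios scaling over the 26 libraries, which sets the typical gene to the same level in each library, the intestinal groups were still highest (6.43 to 6.60). PGCLC was then at 6.17, below prePB (6.29), Blast (6.20) and PB (6.18), and the retinal groups and B cells were lowest (5.56 to 5.66). As deposited, both B cell libraries (5.57 and 5.53) and both PB libraries (5.39 and 5.33) lay below the other 22 libraries. The lowest of those 22 was prePB replicate 2 at 5.76. In these bulk libraries, fewer cells of a type and less RNA per cell cannot be told apart.

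**Figure D1:**
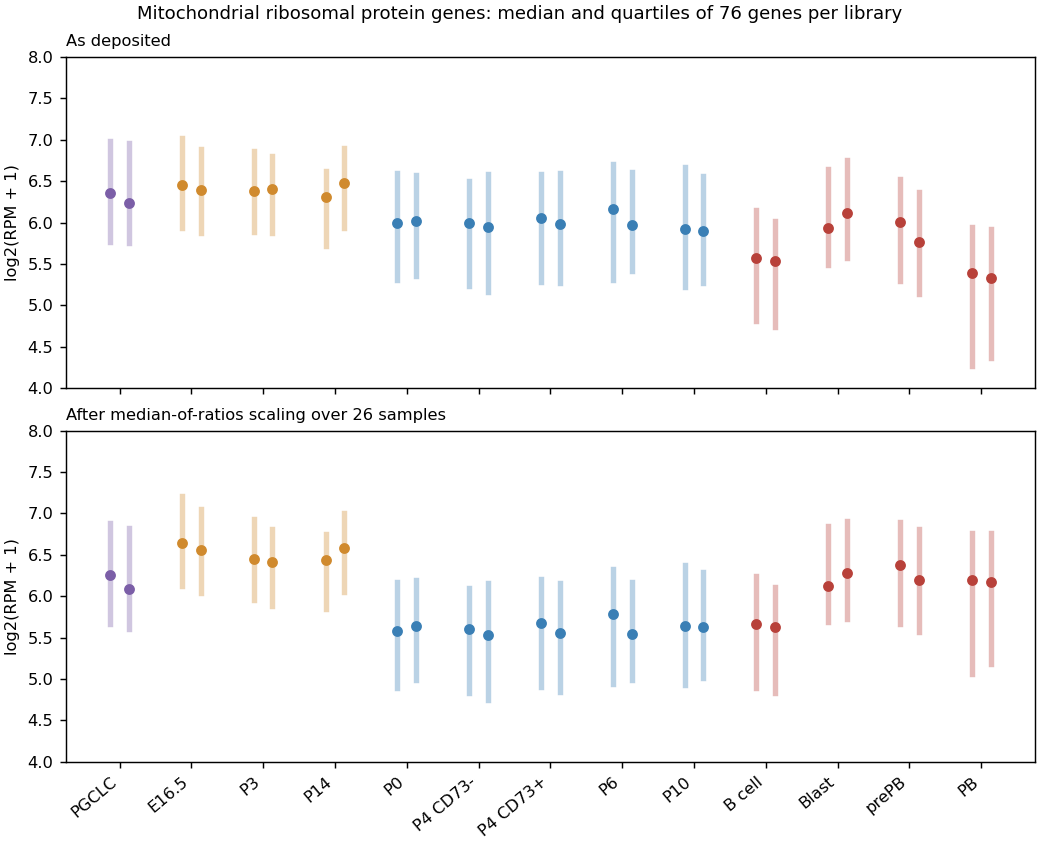
Median (point) and quartiles (bar) of log2(RPM + 1) over the 76 mitochondrial ribosomal protein genes in each of 26 libraries, 2 per group, as deposited (top) and after median-of-ratios scaling over all libraries (bottom). As deposited, PB and B cells sit lowest; after scaling, PB sits at 6.20 and 6.17 beside Blast, and the retinal libraries fall to between 5.53 and 5.79.

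The single genes followed the family to different degrees. Taking each gene's mean in each group as deposited, 52 of the 76 were highest in PGCLC or the intestine. By the same means 54 were lowest in PB or B cells, 43 of them in PB. These counts were not made over all genes or after scaling. As deposited, 55.5% of all genes tested in the B lineage also fell in PB against B cells. After scaling over the 26 libraries, the family level in PB (6.18) lay beside that in PGCLC (6.17). From the highest to the lowest group, the members spanned a median of 1.72 on the log2 scale, against 3.11 for the 11632 genes averaging at least 5 RPM. For the 2372 genes within the quartiles of the members' own mean levels (48.0 to 99.2 RPM), that span was 2.58. The widest spans among members of at least 5 RPM were those of Mrps31 (3.25), Mrps6 (3.21), Mrpl12 (2.72), Mrpl2 (2.61) and Mrpl50 (2.59). The narrowest were those of Mrps23 (0.99), Mrps14 (1.01), Mrpl4 (1.05), Mrpl43 (1.08) and Mrps21 (1.08). Across the 13 group means, the correlation of a gene with the family median had a median of 0.663; it was over 0.5 for 60 genes and below 0 for none. These correlations describe 13 points that share libraries and normalization, and each gene is itself part of the median.

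Mrps31, with the widest span, had 94.6 and 93.6 RPM at P3 and 93.1 and 88.1 RPM at P14, 26.2 and 34.9 RPM at P0 and 7.66 and 10.5 RPM in PB. Its protein belongs to the small subunit and has no bacterial counterpart. Mrps23, with the narrowest, had its highest mean in Blast, with 91.9 and 104 RPM, and its lowest in PB, with 50.5 and 46.6 RPM. The genes that tracked the family least were Mrpl49 (r = 0.09), Mrps7 (0.12), Mrps33 (0.17) and Mrps25 (0.19), all over 13 groups. Mrpl49, a large-subunit protein without bacterial counterpart, had 309.6 and 270.5 RPM at P6 and 284 and 276 RPM at P10, and no library outside the retina exceeded its 101 RPM at P3. Mrps33 had 304 and 327 RPM in P4 CD73- cells, and its highest value outside the retina was 169.8 RPM in Blast. Mrpl49 and Mrps25 overlap Syvn1 and Nr2c2 on the opposite strand; Syvn1 averaged 164 RPM in PB and 25.7 RPM at P6, and Nr2c2 6.46 RPM or less in each group.

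**Figure D2:**
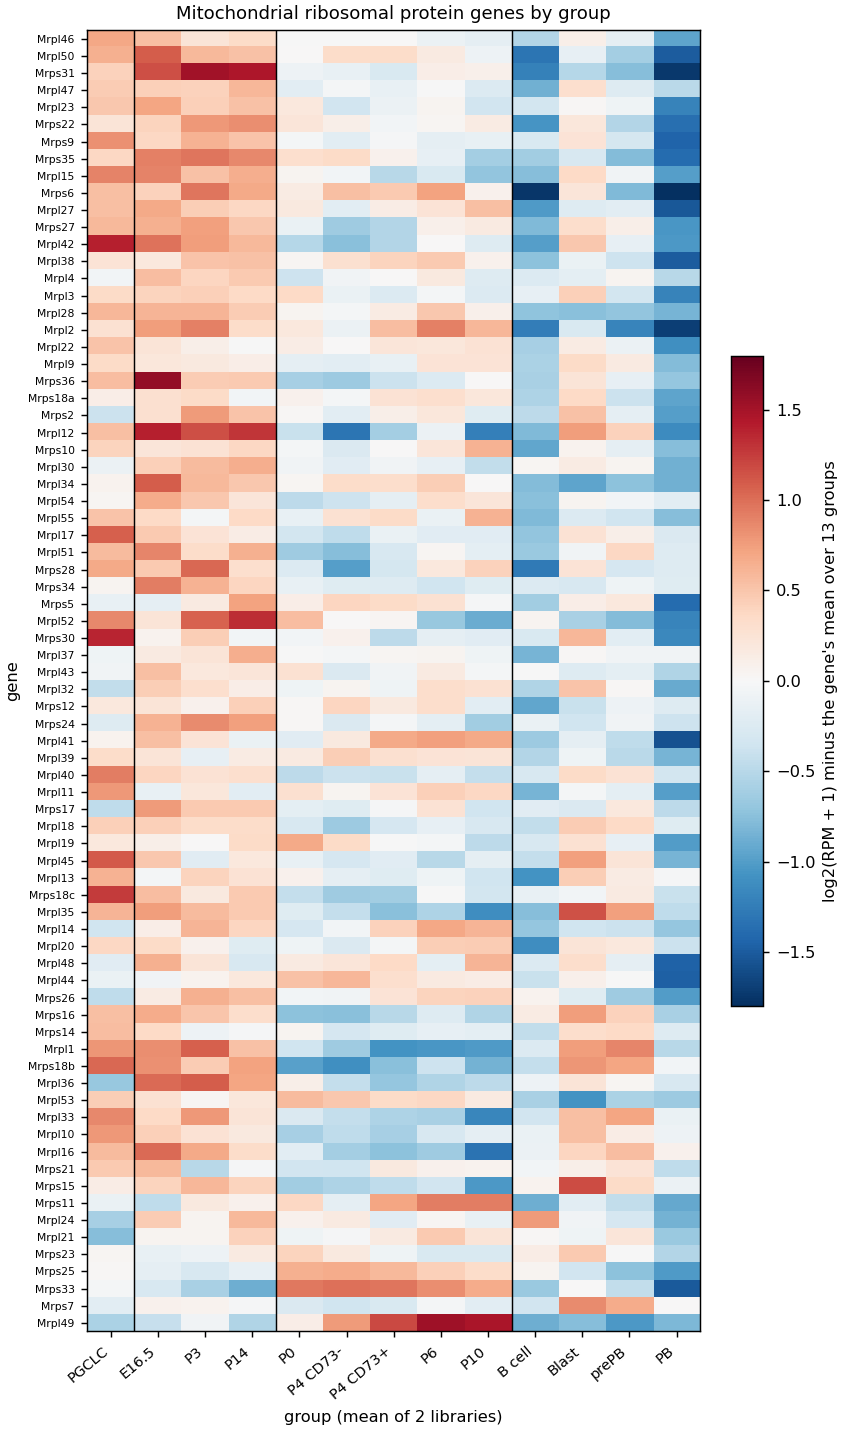
Group mean of log2(RPM + 1) minus the gene's own mean over 13 groups (colour, log2 units) for each of the 76 genes, ordered by their correlation with the family median. As deposited, most rows are high in PGCLC and the intestine and low in PB. Mrpl49, Mrps33 and Mrps25 at the bottom are high in the retina.

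Mitochondrial ribosomal protein genes rose in Blast against B cells. By limma on log2(RPM + 1), with p-values adjusted by Benjamini-Hochberg over all genes tested, 43 of 74 members tested rose and 1 fell at an adjusted p under 0.05. In the same comparison 21.1% of the 9871 genes tested rose and 30.5% fell. The median member changed by 0.67 on the log2 scale and the median gene by -0.18. Of the members that rose, 18 rose at least by a log2 fold change of 1, as did 12.3% of all genes. The proportion that rose was 16 of 28 and 12 of 19 for the large-subunit proteins with and without bacterial counterpart, and 10 of 16 and 4 of 10 for those of the small subunit.

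Mrpl35 (chromosome 6, 71812997 to 71823784), a large-subunit protein, had 144 and 169 RPM in Blast and 46.6 and 35.6 RPM in B cells, a log2 fold change of 1.91 ± 0.18, adjusted p = 1.22e-06. Here and below, the value after ± on a fold change is its standard error from the limma fit, not an SD. Mrpl12 (chromosome 11, 120484637 to 120488754) forms the flexible stalk that receives elongation factors. It had 27.2 and 33.5 RPM in Blast and 12.5 and 7.47 RPM in B cells (1.54 ± 0.37, adjusted p = 0.00295). Mrps6 (chromosome 16, 92058336 to 92112227), a small-subunit protein, had 58.6 and 41.6 RPM in Blast and 18.1 and 7.71 RPM in B cells (1.96 ± 0.36, adjusted p = 4.27e-04). In all 3 genes each Blast library lay above each B cell library, though the 2 B cell libraries of Mrps6 differed by more than 2-fold, and the 3 rises still passed with each library of these groups left out in turn. The Mrps6 locus shares exon sequence on its strand with Slc5a3, a sugar transporter gene that averaged 5.06 RPM in Blast and 2.38 RPM in B cells.

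Other large rises in Blast were those of Mrpl13, a large-subunit protein, with 207 and 212 RPM in Blast and 77.0 and 68.9 RPM in B cells (1.51 ± 0.19, adjusted p = 1.76e-05), and of Mrps28, with 30.0 and 62.7 RPM in Blast and 14.8 and 14.5 RPM in B cells (1.51 ± 0.30, adjusted p = 6.77e-04). Mrpl42 had 165 and 197 RPM in Blast and 61.7 and 66.2 RPM in B cells (1.49 ± 0.19, adjusted p = 1.72e-05). At the base of the stalk, Mrpl11 and Mrpl10 rose by less (0.80 and 0.66), and Mrpl45, which lies at the tunnel exit facing the inner membrane, rose by 1.17. Mrps12, at the decoding site, rose by 0.53, and Mrps22, a small-subunit protein linked to mitochondrial disease in humans, by 1.27. Among the paralogs that share the S18 fold, Mrps18a (0.90) and Mrps18b (1.21) rose, while Mrps18c had a log2 fold change of 0.09 ± 0.25, adjusted p = 0.795.

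Mrpl24 (chromosome 3, 87918131 to 87923450), a large-subunit protein, was the member that fell, with 30.0 and 21.7 RPM in Blast and 44.1 and 48.4 RPM in B cells (-0.83 ± 0.27, adjusted p = 0.0185). Its 2 groups did not overlap, but the call was lost without B cell replicate 1 or 2 or Blast replicate 2, and without Blast replicate 1 the number of members that fell was 2. Mrpl24 overlaps Rrnad1 on the opposite strand, which averaged 103 RPM in Blast and 153 RPM in B cells. The unstimulated B220+ libraries also held more RNA of other blood cells. The summed level of 6 T, NK and myeloid markers was 5.33 and 13.3 RPM in Blast, against 332 and 437 RPM in B cells, where none of the 6 was at 0; the part of these cells in the result was not tested.

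In Blast against B cells, genes with related roles were counted beside the members. Among proteins of the mitochondrial ribosome under other names, 4 of 6 rose, among them Chchd1 (116 RPM in Blast and 64.4 RPM in B cells). Of 17 mitochondrial translation factors, 5 rose and 3 fell; the elongation factor gene Tsfm rose and Qrsl1, needed for a mitochondrial glutaminyl-tRNA, fell (-1.50 ± 0.28, adjusted p = 4.87e-04). Of 24 factors that assemble the ribosome, 4 rose and 3 fell. Of 75 nuclear-encoded oxidative phosphorylation subunits, 37 rose and none fell, with a median of 0.49. Of 77 cytosolic ribosomal proteins, 11 rose and 4 fell, with a median of 0.17. All 22 cell-cycle genes rose, with a median of 1.64, and their part in the members' rise was not tested.

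Between prePB and Blast few members changed. Of 74 members, none rose and 4 fell, against 6.33% of all genes that rose and 12.6% that fell. The median member and the median gene both changed by -0.24. The members that fell were Mrps15, Mrpl2, Mrps22 and Mrpl42. Mrps15, a small-subunit protein, had 79.4 and 65.0 RPM in prePB and 127 and 129 RPM in Blast (-0.83 ± 0.17, adjusted p = 0.00444). Mrpl2, of the peptidyl transferase centre, had 20.1 and 16.49 RPM in prePB and 34.0 and 36.7 RPM in Blast (-0.92 ± 0.28, adjusted p = 0.0354). The call of Mrpl2 was lost whichever of the 4 libraries was left out, that of Mrps22 with 3 of them left out in turn and that of Mrps15 without prePB replicate 2. The number that fell was 1 without Blast replicate 2 and 2 without prePB replicate 2.

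As deposited, many mitochondrial ribosomal protein genes fell in PB against prePB, and fewer did after the scaling described below. None of 74 rose and 40 fell, against 2.87% of all genes that rose and 24.7% that fell. The median member changed by -0.61 and the median gene by -0.39. Genes for large-subunit proteins fell in 16 of 28 (bacterial counterpart) and 11 of 19 (none), and those for small-subunit proteins in 6 of 16 and 6 of 10. The count of members that fell was 23 without prePB replicate 1 and 25 without PB replicate 2.

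Mrpl44 (chromosome 1, 79776018 to 79781445), a large-subunit protein related to RNase III, had 28.1 and 18.5 RPM in PB and 63.2 and 65.6 RPM in prePB (-1.46 ± 0.27, adjusted p = 0.00164). Mrpl12, of the stalk, had 11.6 and 4.69 RPM in PB and 23.2 and 24.3 RPM in prePB (-1.55 ± 0.37, adjusted p = 0.00725). Mrps5 had 2.27 and 0.703 RPM in PB and 5.49 and 6.59 RPM in prePB (-1.57 ± 0.41, adjusted p = 0.0124). In the 3 genes both PB libraries lay below both prePB libraries. The falls of Mrpl12 and Mrps5 did not pass without PB replicate 2, and that of Mrps5 not without prePB replicate 2 either, where the changes were between -0.97 and -1.46. Mrpl3 (-0.86), Mrpl11 (-0.81), Mrpl45 (-1.06), Mrps16 (-0.99), Mrps22 (-0.83), Mrps18b (-0.76) and Mrps36 (-0.54) fell too. Values for Mrpl10 (-0.23), Mrps12 (-0.14), Mrps2 (-0.83), Mrps18a (-0.56), Mrps18c (-0.55) and Mrps28 (0.07) did not pass.

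The total on usable lines was also lower in PB. The RPM on these lines, which leave out most immunoglobulin lines because those were not filled in every library, summed to 688942 and 650799 in PB and to 864611 and 827448 in prePB. The members took 0.493 and 0.516% of it in PB, against 0.623 and 0.603% in prePB, 0.597 and 0.652% in Blast and 0.432 and 0.404% in B cells. After median-of-ratios scaling within the B lineage, 1 member rose and 11 fell in PB against prePB, with 7.92% and 7.1% of all genes doing so. The median member changed by -0.18 and the median gene by 0.01. The 11 members also fell as deposited: Mrps5, Mrpl12, Mrpl44, Mrpl1, Mrpl48, Mrpl35, Mrpl38, Mrps9, Mrpl23, Mrpl45 and Mrpl22. The scaled change was -1.04, adjusted p = 0.017 for Mrpl44 and -1.16, adjusted p = 0.0466 for Mrpl12, and Mrpl49 rose (0.66, adjusted p = 0.0268). The scaled family level was 5.80 ± 0.01 in PB, 5.89 ± 0.12 in prePB, 5.82 ± 0.12 in Blast and 5.21 ± 0.05 in B cells.

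The rise in Blast did not depend on this scaling: 54 members rose and 1 fell in Blast against B cells after it, the 43 and the 1 called before among them, with 24.6% and 25% of all genes doing so. In prePB against Blast, Mrpl51 and Mrpl53 rose and Mrps15 fell after scaling, against 8.71% and 5.79% of all genes. PB against B cells is where the direction turned. As deposited, 8 members rose and 20 fell, against 11.1% and 55.5% of all genes, with a median of -0.26 for the members (-0.15 without B cell replicate 1) and -0.77 for all genes. After scaling, 34 rose and 1 fell, against 25.2% and 25.2% of all genes, with medians of 0.51 and -0.02.

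Mrpl13 had 125 and 186 RPM in PB and 77.0 and 68.9 RPM in B cells and rose as deposited (1.06 ± 0.19, adjusted p = 2.41e-04) and after scaling (1.85, adjusted p = 2.28e-06). Mrps28 and Mrpl37, proteins of the small and the large subunit, rose as well (1.04 and 0.76), and the call of Mrpl37 was lost without B cell replicate 1. Mrpl24 had 16.7 and 12.2 RPM in PB and 44.1 and 48.4 RPM in B cells and fell as deposited (-1.63 ± 0.27, adjusted p = 1.17e-04) and after scaling (-0.86, adjusted p = 0.0135). Mrpl52 and Mrpl48 fell as deposited (-1.23 and -1.22), Mrpl52 not without PB replicate 2, and neither passed after scaling. The count of members that rose was 5 without B cell replicate 1 and 4 without B cell replicate 2.

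**Figure D3:**
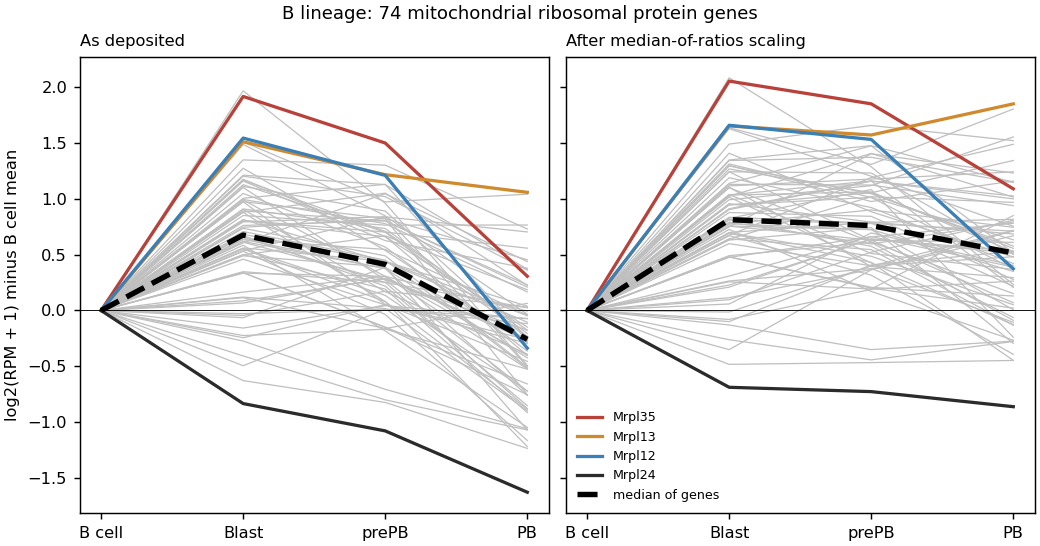
Group mean of log2(RPM + 1) minus the B cell mean for the 74 members tested in the B lineage (grey lines), with Mrpl35, Mrpl13, Mrpl12 and Mrpl24 in colour and the median of the 74 members dashed, as deposited (left) and after median-of-ratios scaling (right). Most lines climb to Blast; as deposited they drop again in PB, and after scaling the members' median stays above the B cell level.

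Blast against B cells and PB against prePB share no library. As deposited, 28 members rose in the first and fell in the second, which is 65.1% of the 43 that rose and 70% of the 40 that fell. Over all genes tested the same pattern held for 1004, or 48.2% of the 2085 that rose and 41.1% of the 2441 that fell. Whether or not they rose in Blast, 54.1% of members and 24.7% of all genes fell in PB against prePB. In Blast against B cells, 58.1% of members and 21.1% of all genes rose. After scaling the pattern held for 9 members, 16.7% of the 54 that rose and 81.8% of the 11 that fell. It held for 375 of all genes, 15.4% of those that rose and 53.5% of those that fell. After scaling 14.9% of members and 7.1% of all genes fell in PB against prePB, and 73.0% and 24.6% rose in Blast. In PB against prePB, 3 of 6 other mitochondrial ribosome proteins, 5 of 17 translation factors, 6 of 24 assembly factors and 5 of 19 aminoacyl-tRNA synthetases fell as deposited, and none rose, beside the 24.7% of all genes that fell. After scaling 3 translation factors fell and none of the other 3 lists' genes, beside 7.1% of all genes. Tufm, the elongation factor that brings tRNA to the mitochondrial ribosome, averaged 50.1 RPM in PB and 132 RPM in prePB (-1.38 ± 0.17, adjusted p = 1.01e-04). Of 77 cytosolic ribosomal proteins 30 fell as deposited and none after scaling, and of 75 oxidative phosphorylation subunits 18 fell as deposited and 1 after scaling. The line Mrp63, an older symbol of Mrpl57 and so outside the name rule, went the other way, with 329 and 292 RPM in PB, 245 and 177 RPM in prePB, 124 and 108 RPM in Blast and 96.2 and 104 RPM in B cells; it was singled out after its values were seen.

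Promoters were also looked up for the members. RefSeq windows on GRCm38.p6, from 250 bases before to 50 after the start, were found for 67 members and for 27025 genes in all, the first window listed being used where a gene had several. Each was searched on both strands for CCGGAAG (the core bound by GABPA and other ETS factors), GCGC, any base, then TGCGC in 1 run (NRF1), CACGTG (E-box, as bound by MYC) and AAGATGG (YY1); no matches of different motifs overlapped in a member. GABPA/ETS letters were in 34.3% of the members' windows and 9.12% of all windows, NRF1 letters in 17.9% and 4.78%, YY1 letters in 19.4% and 6.48%, and the E-box in 7.46% and 7.24%. Members that rose in Blast held them in 31.6% (GABPA/ETS), 13.2% (NRF1), 23.7% (YY1) and 7.89% (E-box) of 38 windows. Members tested there without a call held them in 38.5%, 26.9%, 11.5% and 3.85% of 26 windows. A match describes letters and not a bound site. The 27025 windows were not restricted to expressed genes or matched in level or base composition. Whether the members' shares are particular to this family, or related to its changes, was not tested. Shown are the windows of 4 members described in the text, with matches in capitals: Mrpl35 (chr6:71823735-71824034, minus strand), with 2 YY1 matches; Mrpl12 (chr11:120484387-120484686, plus strand), with 1 NRF1 match; Mrpl45 (chr11:97315466-97315765, plus strand), with 3 NRF1 matches, whose RefSeq start site lies 793 bases inside the span of the gene table; and Mrpl52 (chr14:54426659-54426958, plus strand), with 2 GABPA/ETS and 1 YY1 match.
Mrpl35: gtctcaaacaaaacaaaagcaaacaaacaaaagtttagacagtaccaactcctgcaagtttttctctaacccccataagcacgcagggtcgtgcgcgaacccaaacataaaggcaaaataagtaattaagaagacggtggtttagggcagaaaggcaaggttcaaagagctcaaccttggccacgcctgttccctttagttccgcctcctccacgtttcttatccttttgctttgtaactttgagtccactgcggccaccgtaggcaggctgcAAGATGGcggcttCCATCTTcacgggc
Mrpl12: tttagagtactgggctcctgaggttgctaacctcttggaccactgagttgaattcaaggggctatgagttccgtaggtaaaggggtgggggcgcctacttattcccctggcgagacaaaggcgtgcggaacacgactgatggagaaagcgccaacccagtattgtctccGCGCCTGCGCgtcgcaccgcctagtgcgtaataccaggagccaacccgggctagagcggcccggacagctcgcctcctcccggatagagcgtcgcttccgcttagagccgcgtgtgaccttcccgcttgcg
Mrpl45: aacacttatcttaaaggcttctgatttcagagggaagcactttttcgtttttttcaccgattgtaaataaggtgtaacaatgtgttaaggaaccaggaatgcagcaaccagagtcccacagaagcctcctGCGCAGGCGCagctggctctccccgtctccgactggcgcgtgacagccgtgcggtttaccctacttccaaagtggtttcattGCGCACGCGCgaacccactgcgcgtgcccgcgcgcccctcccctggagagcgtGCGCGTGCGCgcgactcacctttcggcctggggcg
Mrpl52: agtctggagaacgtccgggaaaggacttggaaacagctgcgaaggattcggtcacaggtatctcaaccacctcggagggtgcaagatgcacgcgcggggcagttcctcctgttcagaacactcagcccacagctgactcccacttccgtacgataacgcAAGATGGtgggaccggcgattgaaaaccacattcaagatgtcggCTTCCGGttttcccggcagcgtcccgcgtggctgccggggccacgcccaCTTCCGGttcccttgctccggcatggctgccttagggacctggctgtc

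In the intestine, the family's median differed between ages by less than the replicate gap at P14, while single members rose or fell. In P3 against E16.5, 7 of 75 members rose and 6 fell, against 21.3% and 15.8% of all 10481 genes tested. The median member changed by -0.12, or by -0.04 without P3 replicate 2, and the median gene by 0.11. Mrps36 (chromosome 13, 100735940 to 100744659), of the oxoglutarate dehydrogenase complex, had 171 and 154 RPM at P3 and 353 and 355 RPM at E16.5 (-1.12 ± 0.15, adjusted p = 1.89e-06), and at P14 it had 153 and 172 RPM. Mrps21, a small-subunit protein, had 68.2 and 68.7 RPM at P3 and 153 and 139 RPM at E16.5 (-1.08 ± 0.17, adjusted p = 1.62e-05). Both genes had P3 libraries close to each other and far below those of E16.5, and both calls held with each library left out in turn and after scaling. Mrpl52 (chromosome 14, 54426909 to 54429750), a large-subunit protein, had 221 and 207 RPM at P3 and 141 and 100.3 RPM at E16.5 and rose (0.84 ± 0.16, adjusted p = 2.68e-04).

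Mrpl45 fell (-0.70), and Mrps11 and Mrps28 rose (0.63 and 0.56). The calls of Mrps11 and Mrps28 were lost when any of the 4 libraries of the comparison was left out, and that of Mrpl45 without E16.5 replicate 1 or P3 replicate 2. The count of members that rose was 2 without E16.5 replicate 2 or P3 replicate 2 and 1 without P3 replicate 1, and 3 members fell without E16.5 replicate 1. After scaling, 1 member rose and 12 fell, against 16.8% and 18.9% of all genes. The E16.5 cells were sorted for the reporter and those of P3 were not, so age and gate cannot be told apart here.

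Between P14 and P3, 1 of 75 members fell and none rose, against 4.99% and 3.67% of all genes. The member was Mrps28, with 40.6 and 50.2 RPM at P14 and 70.8 and 81.8 RPM at P3 (-0.74 ± 0.20, adjusted p = 0.0183); it did not pass without either P3 library or P14 replicate 1, and 5 members fell without P14 replicate 2. After scaling 1 member rose and 1 fell, against 4.24% and 3.53% of all genes. In P14 against E16.5, 3 of 75 rose and 12 fell, against 20% and 19.1% of all genes. Mrpl52 had 256 and 258 RPM at P14 and 141 and 100.3 RPM at E16.5 (1.10 ± 0.16, adjusted p = 8.15e-06). Mrpl37 and Mrps22 were the other members that rose (0.50 and 0.44), each lost under 3 of the 4 omissions of a library. Mrps36 fell (-1.12 ± 0.15, adjusted p = 1.58e-06). Mrpl48 (-0.92) and Mrpl16 (-0.70) fell with all libraries but not without P14 replicate 1, where 3 members fell. After scaling 1 rose and 12 fell, against 18.8% and 20.2%.

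The families around the mitochondrial ribosome separated in the intestine. In P3 against E16.5, 45 of 77 cytosolic ribosomal proteins rose and none fell (median 0.40), and 43 of 75 oxidative phosphorylation subunits fell and none rose (median -0.42). Rplp1, a cytosolic stalk protein, averaged 3173 RPM at P3 and 1760.3 RPM at E16.5. Uqcrb, a complex III subunit, averaged 352 RPM at P3 and 643 RPM at E16.5. The median of the mitochondrial ribosomal proteins, -0.12, lay between these families. Of 22 cell-cycle genes, 22 rose in the same comparison. In P14 against E16.5, 74 of 77 cytosolic ribosomal proteins rose and 31 of 75 oxidative phosphorylation subunits fell.

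**Figure D4:**
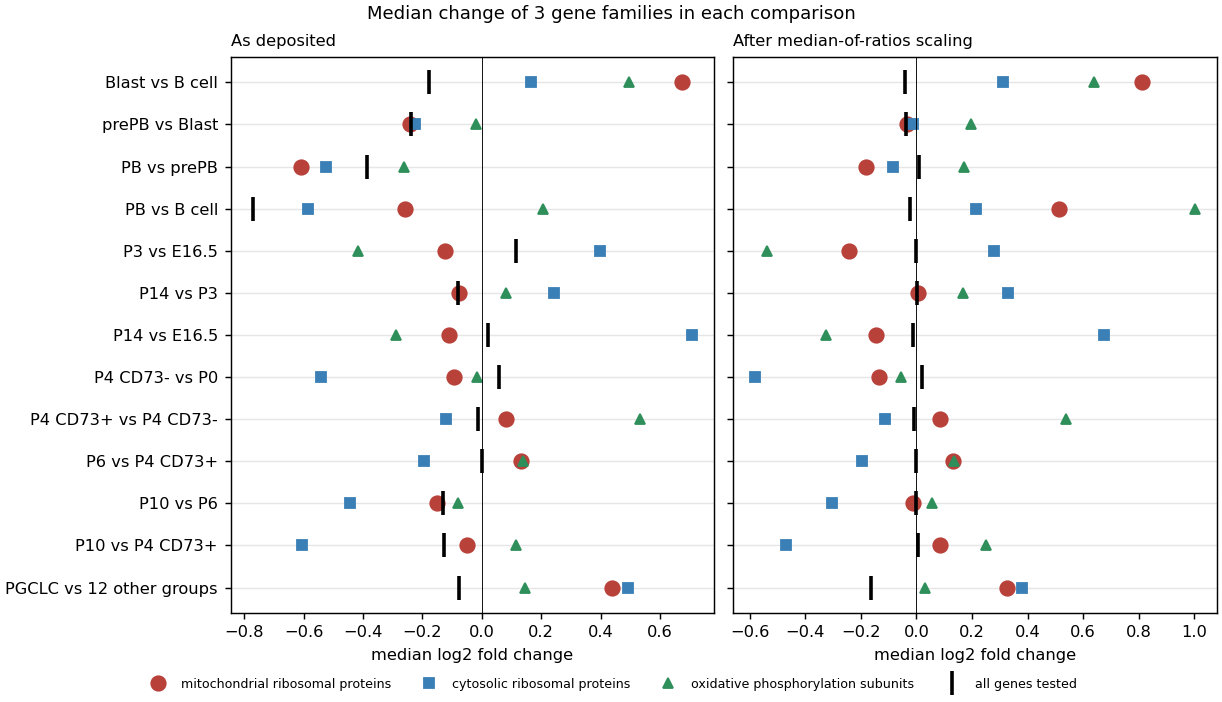
Median log2 fold change in each of 13 comparisons for the mitochondrial ribosomal protein genes (circles), the cytosolic ribosomal proteins (squares), the oxidative phosphorylation subunits (triangles) and all genes tested (bars), as deposited (left) and after median-of-ratios scaling (right). In Blast against B cells the mitochondrial ribosomal proteins lie highest, and in P10 against P4 CD73+ they lie at -0.05 as deposited, where the cytosolic ribosomal proteins lie at -0.61.

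In the retina few members passed in any comparison, and the median member changed by between -0.15 and 0.13 on the log2 scale. In P4 CD73- against P0, 1 of 74 members rose and 3 fell, against 12.6% and 9.28% of all 11704 genes tested. The member that rose was Mrpl49, with 179 and 163 RPM in P4 CD73- and 121 and 99.0 RPM at P0 (0.64 ± 0.14, adjusted p = 0.00375). Those that fell were Mrpl52, Mrpl23 and Mrpl43; Mrpl52 had 106 and 98.6 RPM in P4 CD73- and 145 and 155 RPM at P0 (-0.55 ± 0.18, adjusted p = 0.0386). None of the 4 passed without P4 CD73- replicate 1, and without P0 replicate 2 none fell and 2 rose. After scaling 1 rose and 6 fell, against 11.2% and 10.2% of all genes.

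In P4 CD73+ against P4 CD73-, 3 of 74 members rose and none fell, against 6.41% and 4.93% of all genes. Mrps11, a small-subunit protein, had 62.0 and 51.3 RPM in P4 CD73+ and 31.8 and 28.5 RPM in P4 CD73- (0.88 ± 0.20, adjusted p = 0.0085), and its groups did not overlap. Mrpl2 and Mrpl41 rose by 0.67 and 0.51. Without P4 CD73- replicate 1 or P4 CD73+ replicate 2 only Mrps11 passed, and without P4 CD73- replicate 2 or P4 CD73+ replicate 1 none did. After scaling 3 rose and none fell, against 6.4% and 4.87% of all genes. In the same comparison 46 of 75 oxidative phosphorylation subunits rose and none fell, with a median of 0.53 beside 0.08 for the members.

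In P6 against P4 CD73+, 1 of 74 members fell and none rose, against 1.95% and 2.32% of all genes. It was Mrpl52, with 78.3 and 51.1 RPM at P6 and 101 and 107 RPM in P4 CD73+ (-0.71 ± 0.18, adjusted p = 0.037), and it did not pass without either P4 CD73+ library or P6 replicate 2. After scaling 1 fell and none rose, against 2.02% and 2.32%. In P10 against P6, 2 rose and 4 fell, against 6.37% and 14.2%. Mrpl55 and Mrpl48 rose (0.75 and 0.78), and Mrpl12, a stalk protein, Mrps15, Mrps6 and Mrps12 fell (-1.12, -0.68, -0.65 and -0.50). Mrpl12 had 6.75 and 7.07 RPM at P10 and 16.8 and 15.5 RPM at P6 (-1.12 ± 0.33, adjusted p = 0.0272), a call lost whichever of the 4 libraries was left out. The members that rose numbered 0 without P6 replicate 1 or P10 replicate 2 and 1 without P6 replicate 2 or P10 replicate 1, and those that fell 1 without either P6 library and 0 without P10 replicate 2. After scaling 3 rose and 1 fell, against 9.24% and 9.9% of all genes.

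Over the CD73+ cells from P4 to P10, Mrpl52 declined: it had 55.3 and 52.8 RPM at P10 and 101 and 107 RPM in P4 CD73+ (-0.93 ± 0.18, adjusted p = 9.59e-04), and the call held with each library left out in turn. In that comparison 3 of 74 members rose and 5 fell, against 10.7% and 19.3% of all genes. Mrps28, Mrps10 and Mrpl20 rose (0.74, 0.63 and 0.50), and Mrps35, Mrpl33, Mrps24 and Mrps15 fell beside Mrpl52. None rose and 1 fell without P10 replicate 2, 1 rose without P10 replicate 1, and 1 fell without P4 CD73+ replicate 2. After scaling 6 rose and 3 fell, against 13.8% and 14.6% of all genes, and the members' median was 0.09 instead of -0.05. Of 77 cytosolic ribosomal proteins 65 fell and of 22 cell-cycle genes 19.

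In PGCLC against the mean of the 12 other groups, 41 of 75 members rose and 6 fell, against 32.7% and 35.9% of all 14131 genes tested. The p-values of this comparison measure the spread within the pairs of libraries and not the spread among the 12 groups averaged. That average includes B cells and PB, and the family level in PGCLC (6.29) lay below each intestinal group (6.39 to 6.43). After scaling over the 26 libraries, PGCLC ranked 7 of the 13 groups. The median member changed by 0.44 and the median gene by -0.08; after scaling 38 rose and 8 fell, against 29.4% and 38.4% of all genes. Mrpl42 (chromosome 10, 95480805 to 95501949), a large-subunit protein without bacterial counterpart, had 362 and 319 RPM in PGCLC (1.51 ± 0.13, adjusted p = 6.43e-10), above the 24 other libraries, of which the highest had 279.7 RPM at E16.5. Mrps30, also of the large subunit, had 81.6 and 86.0 RPM in PGCLC (1.48 ± 0.22, adjusted p = 3.97e-06), and no other library exceeded 54.1 RPM. Mrps18c had 127 and 123 RPM in PGCLC (1.36 ± 0.15, adjusted p = 4.91e-08), and no other library exceeded 76.7 RPM. In these 3 genes both PGCLC libraries stood above all other libraries. With 1 PGCLC library left out, the changes were 1.42 to 1.60 for Mrpl42, 1.44 to 1.52 for Mrps30 and 1.33 to 1.38 for Mrps18c. The 3 genes were picked for their large changes. How many of all genes stood above all other libraries in PGCLC was not counted.

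Further genes that rose in PGCLC were Mrpl45 (1.20), Mrps18b (1.12), Mrpl10 (0.85), Mrpl11 (0.84), Mrpl12 (0.59), Mrps16 (0.59), Mrps36 (0.61) and Mrpl3 (0.38). After scaling, Mrpl12 and Mrpl3 no longer passed (adjusted p = 0.089 and 0.158), and the other 6 did. For Mrpl45, Mrpl10 and Mrpl11 both PGCLC libraries lay above all other libraries, again without a count over all genes. For Mrps18b, Mrpl12, Mrps16, Mrps36 and Mrpl3 they overlapped the other libraries. Mrps36 averaged 174 RPM in PGCLC and 354 RPM at E16.5. Mrpl49, Mrpl24 and Mrpl36 fell most (-0.61, -0.65 and -0.73). Without PGCLC replicate 1 the changes were -0.47 for Mrpl24 and -0.45 for Mrpl36, and neither call held. Mrpl36 lay near the floor, with 1.17 and 2.22 RPM in PGCLC, where 3 reads amount to 1.75 RPM in replicate 1. It overlaps Ndufs6 on the opposite strand, which averaged 258 RPM in PGCLC. Of the other families, 63 of 77 cytosolic ribosomal proteins rose and 3 fell, 29 of 75 oxidative phosphorylation subunits rose and 21 fell, and 21 of 22 cell-cycle genes rose. PGCLC are cultured cells of another line and strain mix, so lineage, culture and strain cannot be told apart.

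**Figure D5:**
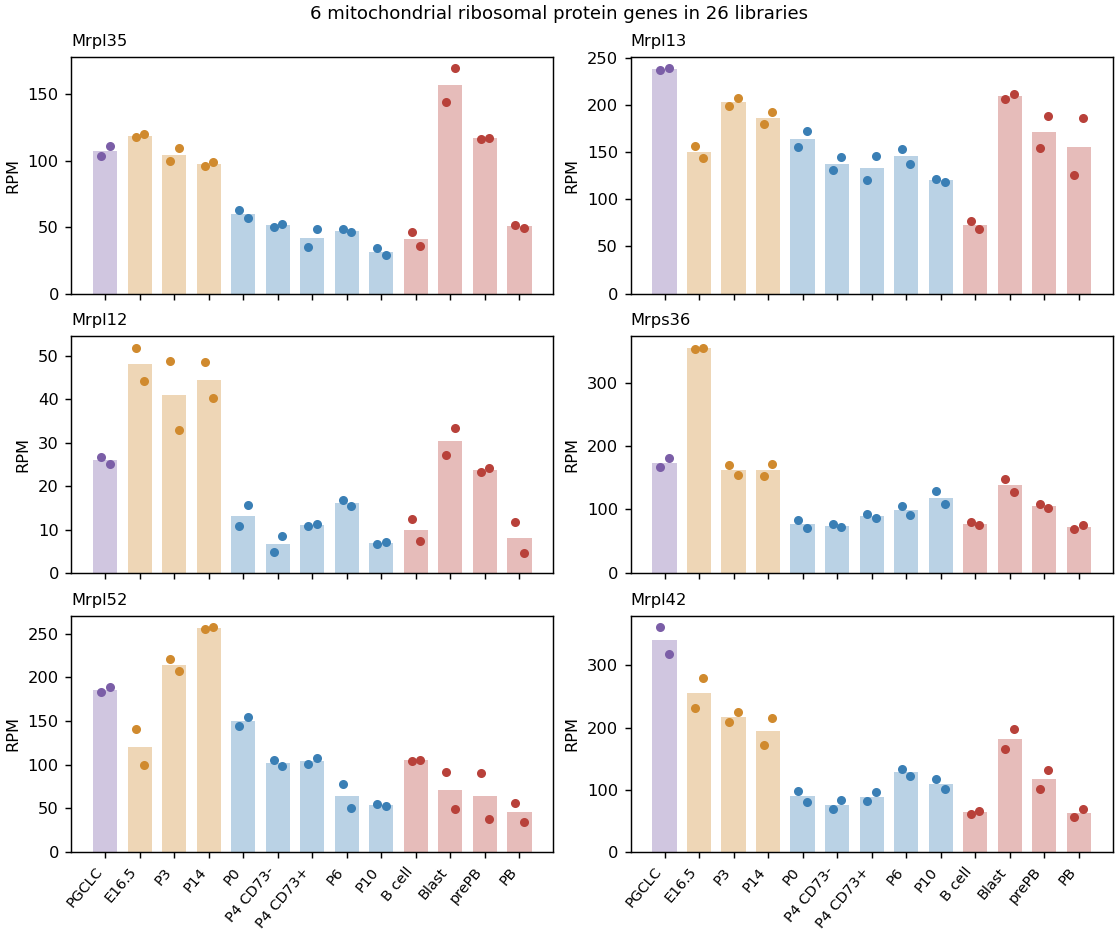
RPM of 6 members in each of 26 libraries (points) with the group mean (bars, from 0), n = 2 per group. Mrpl35 peaks in Blast (144 and 169 RPM), Mrps36 at E16.5 (353 and 355 RPM), Mrpl42 in PGCLC (362 and 319 RPM), and the Mrpl52 libraries of P10 (55.3 and 52.8 RPM) lie below those of P0 (145 and 155 RPM).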

How the data were processed

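Each library was made by 3′ RNA-seq, per the labels' protocols, and each of the 13 groups had 2 libraries. The deposited table holds a signal per gene, the RPM that the authors computed. Per the submitters' processing notes, the genome build was mm10 and the tools included Cufflinks 2.2.0, Bowtie 1.0.1, TopHat 1.4.1 and cutadapt 1.11. Strand handling and the counter are not given in the sources used here. Low values were whole multiples of 1 read (tolerance 0.02 read) for 76.9 to 87.2% of values, so the deposited signal holds fractions of reads and no count test was run; 1 read was worth 0.166 to 0.583 RPM. Of all lines, 1164 were not filled in every library (92 ERCC controls and 1072 gene lines) and were left out. Mitochondrially encoded genes were not analysed here.

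Values were tested as log2(RPM + 1) with limma 3.58.1 in R 4.3.3 (trend), on genes that reached 5 RPM in 2 or more libraries of the fit, with Benjamini-Hochberg adjustment over all genes tested. Fold changes are on this scale, which understates changes of low genes. The fits held the 8 B-lineage, 6 intestinal, 10 retinal or all 26 libraries, so the groups of a fit share 1 estimate of spread. Tables and figures used Python 3.11.15, NumPy 2.4.6, pandas 2.3.3 and matplotlib 3.10.9. Data were also simulated from the 8 B-lineage libraries, with changes planted in Blast (9584 genes tested). In Blast against B cells, 45% of genes changed by a log2 of 1 and 94% of those changed by 2 were recovered. Changes were planted only in genes above a minimum mean level, so this recovery does not cover low members such as Mrps5. Of the simulated calls in Blast against B cells, 2.8% were false. In like simulations this share was 2.78% in P3 against E16.5 and 4.375% in P4 CD73- against P0. It was 7.43% in PGCLC against the 12 other groups, above the 5% aimed at. The alternatives were a pseudocount of 0.5, no filter, median-of-ratios scaling, the replicate number as a block, and leaving out each library. With 2 libraries a group, a single comparison by exact permutation could not pass 0.05, so none was run.

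The members and lists were chosen with earlier results of these data known. Named are, per comparison, up to 3 members with the largest change in each direction among those called, the 5 highest and lowest by mean, the 5 widest and narrowest by range (mean of at least 5 RPM), members with set roles, and up to 3 genes of each related list. Members outside these rules, such as Mrps7, Mrps25 or Mrps24, were named after their values were seen.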

Additional observations from a re-analysis of the deposited data

How the results depend on the processing

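With 2 libraries a group, 26 of the 32 named calls of intestinal and retinal members were lost with at least 1 library left out, 7 of them whichever of 4 was left out. Among the named calls of members, 91 leave-one-out results no longer passed and 113 did; no longer passing were 11 of 54 after median-of-ratios scaling, 21 of 54 without the filter, 2 of 54 with a pseudocount of 0.5 and 4 of 54 with the replicate number as a block; none turned round. Without a library, a lone sample was assumed to vary like the other groups. Of the members' median changes, 12 leave-one-out values moved by more than the replicate spread and 38 did not; the range that changed sign was -0.12 to 0.03 in P14 against P3. The cause of the changes below was not tested. The share of all genes called was not computed without the filter, with the replicate block or with a library left out. These settings act on every gene tested, so member counts under them, here and above, are not read as results about the members.

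After median-of-ratios scaling, 2 members rose and 1 fell in prePB against Blast, 1 and 11 in PB against prePB, 34 and 1 in PB against B cells, 1 and 12 in P3 against E16.5, and 6 and 3 in P10 against P4 CD73+. It also gave 1 member that rose in P14 against P3, 1 that rose in P14 against E16.5, 6 that fell in P4 CD73- against P0 and 1 that fell in P10 against P6. The median change turned to 0.51 in PB against B cells and to 0.0852 in P10 against P4 CD73+, and the difference of group medians, PB minus B cells, to 0.59.

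Without the filter, 0 members fell in Blast against B cells, 1 in prePB against Blast, 23 in PB against prePB, 0 in P14 against P3, 1 in P4 CD73- against P0, 0 in P6 against P4 CD73+ and 2 in P10 against P6. The members that rose were then 1 in P14 against E16.5, 1 in P4 CD73+ against P4 CD73-, 0 in P10 against P6 and 1 in P10 against P4 CD73+.

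Same-numbered libraries had correlated deviations of -0.05 to 0.28, not over 0.1 in every pair of groups. The highest were 0.28 for P4 CD73- with P4 CD73+, 0.20 for Blast with prePB and 0.13 for prePB with PB. Whether the numbers pair the libraries of these sorts cannot be told from this, and the main fits took them as unpaired. With the replicate block, 3 members fell in Blast against B cells and 7 in prePB against Blast; the other counts stayed within 1.5 times. The named calls lost under it were Mrps22 in P14 against E16.5, Mrpl43 in P4 CD73- against P0, Mrpl2 in P4 CD73+ against P4 CD73- and Mrps28 in P10 against P4 CD73+, with adjusted p from 0.0508 to 0.0545.

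Leaving out 1 library at a time gave these ranges of members that rose and fell: 29 to 38 and 0 to 2 in Blast against B cells; 1 to 4 fell in prePB against Blast; 23 to 32 fell in PB against prePB; 4 to 7 and 16 to 20 in PB against B cells. In the intestine they were 1 to 6 and 3 to 5 in P3 against E16.5, 0 to 5 that fell in P14 against P3, and 2 to 3 and 3 to 13 in P14 against E16.5. In the retina they were 0 to 2 and 0 to 2 in P4 CD73- against P0, 0 to 1 that rose in P4 CD73+ against P4 CD73-, 0 to 1 that fell in P6 against P4 CD73+, 0 to 1 and 0 to 3 in P10 against P6, and 0 to 2 and 1 to 4 in P10 against P4 CD73+. For PGCLC they were 29 to 33 and 3 to 4.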
